A study of Mus musculus with 28 samples.

Results

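The genes that define T cells, natural killer (NK) cells and their killing machinery were followed through 14 liver tumours and the tissue beside each of them. The set holds 32 genes of 18182 in the deposited table, chosen by symbol: 20 of the T lineage and 12 of cytotoxic and NK cells. The genotype of every library, tumour and peritumour alike, is c-Myc/Alb-cre transgenic: c-Myc is the oncogene, and in Alb-cre the albumin promoter, active in hepatocytes, drives the recombinase Cre. Group names combine tissue (Tu tumour, Pe peritumour) with a letter, M or F, that the labels do not expand: 3 Tu_M and 3 Pe_M libraries, and 11 Tu_F and 11 Pe_F libraries. Each library shares a title code with 1 library of the other tissue, which stands here for the animal. Ages, treatments and a liver without the transgene are not part of the labels used here.

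T cells recognise peptide on MHC molecules through a receptor that cannot signal alone. The CD3 chains pass the signal on to the kinases LCK and ZAP-70 and the adaptor LAT, while CD4 or CD8 binds the MHC molecule itself. NK cells lack that receptor, read ligands on target cells through activating receptors such as NKG2D and NKp46, and kill, as CD8 T cells do, with perforin and granzymes. The liver is rich in NK cells and in the closely related innate lymphoid cells. Several of the T lineage genes (Cd247, Lck, Zap70, Cd2, Cd27, Thy1) are also expressed by NK cells, and most cytotoxic genes also by CD8 T cells, so the lists mark programmes rather than pure cell types. Thy1 is expressed by fibroblasts too, and Cd4 by some myeloid cells.

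All 32 genes were detected, and all passed the filter on low counts in the fit of all 28 libraries, but at low levels. The T lineage genes summed to 196.5 to 1574 estimated counts per library and the cytotoxic and NK genes to 78.0 to 717, of library totals of 14777567 to 17576921. By TPM, the authors' length-scaled unit that allows genes of different length to be compared, the highest was Nkg7, a granule membrane protein, with a median of 7.80 over the 28 libraries. Gzmb (granzyme B, a protease that triggers apoptosis in target cells) followed at 5.15, the surface glycoprotein Thy1 at 4.87 and Gzma (granzyme A) at 4.53. The receptor chain Cd3g had 2.78 TPM, Lck 2.06 and Lat 2.02. At the low end stood Themis, a signalling regulator best known from thymocyte selection (0.12 TPM), and the regulatory T cell factors Foxp3 and Ikzf2 (0.06 TPM each). Foxp3 rested on at most 13.3 counts in any library and Ifng on at most 26.0, with 5 libraries at 0 for Ifng. Foxp3 passed the filter through the tumours of F 2, F 3 and F 5, with at most 7.25 counts in every other library. When each of the 14 animals was left out in turn, Foxp3 and Eomes were each tested in 11 of the fits.

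The members lie on 12 chromosomes, 7 of them on chromosome 6 and 5 each on chromosomes 1 and 9. Some are close neighbours in the coordinates of the deposited table (GRCm38). Cd3g, Cd3d and Cd3e lie side by side on chr9:44969572-45009664. Cd8b1 and Cd8a share chr6:71322812-71379171, Klrd1 and Klrk1 the NK receptor region chr6:129588092-129623864, and Gzma and Gzmk chr13:113093827-113180897. Gzmb (gene ID 14939) lies on chr14:56258856-56262260. The sources used here do not give whether the libraries keep strand, and reads of overlapping antisense genes cannot be told apart.

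The 250 bases upstream of the start site were available for 23 members, from RefSeq on GRCm38.p6. They were searched on both strands for TGTGGTT, a core word bound by RUNX factors and read as AACCACA on the opposite strand. A second search was for GGTGTGA, a core word bound by T-box factors such as T-bet and Eomes and read as TCACACC on the opposite strand. In no printed window do the words overlap. The RUNX word was present in 4 of 11 cytotoxic and NK members (36.4%), in 1 of 12 T lineage members (8.33%, Lck) and in 5.08% of 27025 genes. The T-box word was present in 2 of 11 cytotoxic and NK members (18.2%, Gzmk and Nkg7), in 0 of 12 T lineage members and in 3.84% of all genes. A match describes the letters of the window and does not show binding. The 4 cytotoxic and NK windows with the RUNX word are shown because they include both granzymes with the lowest adjusted p-values of the set; the word is in capitals, and the sequences run 5′ to 3′ on the strand of the gene, ending at the base before the start.

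Gzmb, chr14:56262335-56262584, minus strand: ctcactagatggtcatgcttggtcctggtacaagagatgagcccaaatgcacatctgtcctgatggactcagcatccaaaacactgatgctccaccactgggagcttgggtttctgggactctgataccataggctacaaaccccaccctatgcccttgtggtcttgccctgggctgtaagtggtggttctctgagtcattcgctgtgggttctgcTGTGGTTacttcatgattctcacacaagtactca
Gzma, chr13:113100982-113101231, minus strand: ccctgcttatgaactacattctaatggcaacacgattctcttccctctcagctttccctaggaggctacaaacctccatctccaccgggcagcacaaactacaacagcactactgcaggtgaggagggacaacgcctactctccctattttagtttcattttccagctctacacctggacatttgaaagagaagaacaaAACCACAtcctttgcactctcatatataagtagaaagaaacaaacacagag
Klrk1, chr6:129623865-129624114, minus strand: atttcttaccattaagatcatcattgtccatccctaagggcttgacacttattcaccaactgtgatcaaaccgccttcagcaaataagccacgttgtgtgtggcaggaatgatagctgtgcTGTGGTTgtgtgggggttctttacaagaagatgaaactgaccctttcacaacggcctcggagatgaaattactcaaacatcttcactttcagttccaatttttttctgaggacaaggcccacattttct
Ncr1, chr7:4337465-4337714, plus strand: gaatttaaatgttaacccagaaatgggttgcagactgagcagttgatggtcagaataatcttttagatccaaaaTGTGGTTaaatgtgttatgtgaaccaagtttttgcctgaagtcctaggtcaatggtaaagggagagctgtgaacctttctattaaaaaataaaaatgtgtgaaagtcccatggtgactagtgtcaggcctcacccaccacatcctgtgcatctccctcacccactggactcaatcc

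The word begins 34 bases before the start in Gzmb, 51 in Gzma, 129 in Klrk1 and 176 in Ncr1.

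The first comparison asks how the transcripts of these cells differ inside the tumour and around it. Levels are CPM (counts per 1000000 counts of the library), fold changes are on the log2 scale (tumour over peritumour) with approximate standard errors derived from the test statistic, and adjusted p-values come from edgeR's quasi-likelihood test with the animal as a block. Gzmb fell in tumour, the only member to pass the 0.05 threshold in either direction, where 5.91% of the 14117 genes tested were lower and 5.59% higher. In the T lineage, 0 of 20 genes passed. At an unadjusted p under 0.05, 3 members were lower (Gzma, Gzmb and Klrd1) and 0 higher, where 14.5% of all genes were lower and 13.7% higher. Because these are whole tissues, fewer cells of a type and less RNA per cell cannot be told apart. The labels do not say that libraries are separate animals, so the p-values measure the spread between these codes.

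Among the granule proteins, Gzmb measured 1.54, 3.90 and 6.36 CPM (lowest, median, highest of 14) in tumours, against 2.17, 4.63 and 13.9 CPM in peritumour tissue. Tumour was lower in 12 of 14 pairs, with the groups overlapping, and the highest peritumour libraries were those of F 9 and F 11 (13.9 and 12.0 CPM). Within pairs the tumour level was 0.426 times (F 5) to 1.19 times (F 3) the peritumour level, with a median of 0.687. Means were 3.81 ± 1.56 CPM in tumours and 5.98 ± 3.52 CPM in peritumour tissue (mean ± SD, n = 14 each). The log2 fold change was -0.62 ± 0.15 (95% interval -0.91 to -0.33), adjusted p = 0.0159 (edgeR). Without the animal block it was -0.64, adjusted p = 0.146 (edgeR), and 0 of 32 members passed (0.241% of all genes were lower and 0.808% higher). The call was also lost in the 11 F pairs alone (-0.61, adjusted p = 0.0507, edgeR) and without F pairs 2, 5 and 6 (-0.45, adjusted p = 0.0517, edgeR). Earlier results of these data showed the peritumour libraries of F 2, F 5 and F 6 high in blood precursor genes. That subset keeps Tu_F 4, the tumour with the highest sum of erythroid precursor markers (118 CPM). It leaves out the tumours of F 2 and F 5, with T lineage sums of 89.7 and 66.1 CPM. Within the first style of title codes (6 pairs) the log2 fold change of Gzmb was -0.56, adjusted p = 0.586, and within the second (8 pairs) -0.65, adjusted p = 0.0647 (edgeR).

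Gzma had 0.704, 2.09 and 5.30 CPM in tumours (lowest, median, highest), against 1.26, 2.12 and 7.18 CPM in peritumour tissue. The medians were nearly equal, but 11 of 14 pairs had the lower value in tumour and Pe_F 9 and Pe_F 11 again stood highest. Its log2 fold change of -0.57 ± 0.19 missed the threshold (adjusted p = 0.0642, edgeR); it passed with DESeq2 (adjusted p = 0.0339), which called 8.78% of all genes lower and 8.13% higher, and without F replicate 3 (adjusted p = 0.0249, edgeR), the pair in which tumour was highest relative to peritumour (1.97-fold). The other granule genes did not pass. Nkg7 measured 3.68 ± 1.60 CPM in tumours and 3.74 ± 1.62 CPM in peritumour tissue (mean ± SD, n = 14 each; log2 fold change -0.10, adjusted p = 0.712, edgeR). Perforin (Prf1), which forms the pores through which granzymes enter, had a log2 fold change of -0.25 ± 0.33. Gzmk, a granzyme of memory-type CD8 T cells, had 0.43 ± 0.41, the 1 cytotoxic gene fitted above 0, at no more than 15.0 counts in any library. Gzmb is a member of a cluster of similar granzyme genes, but its counts were whole numbers in all 28 libraries.

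The NK cell receptors were each fitted below 0, and none passed. Klrd1 encodes CD94, the partner of NKG2 chains in receptors for non-classical MHC. It had 0.128, 0.470 and 1.49 CPM in tumours (lowest, median, highest) and 0.397, 0.672 and 1.37 CPM in peritumour tissue, lower in tumour in 10 of 14 pairs. The fitted log2 fold change was -0.66 ± 0.27, adjusted p = 0.112 (edgeR). Klrk1, which encodes NKG2D, was the most abundant receptor of this group by CPM. It had 0.448, 1.51 and 3.74 CPM in tumours against 0.442, 1.52 and 5.61 CPM in peritumour tissue, so that medians were alike and the 2 highest peritumour values, 5.61 CPM in F 11 and 5.05 CPM in F 9, lay above every tumour. Its log2 fold change was -0.32 ± 0.28. Klrb1c (NK1.1, -0.36 ± 0.22) and Ncr1 (NKp46, -0.38 ± 0.36) were lower in tumour in 10 and 9 of 14 pairs.

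Tbx21 (T-bet) and Eomes, the T-box factors of cytotoxic cells, and Ifng, the gene of interferon gamma, completed the list. Tbx21 measured 0.192, 0.576 and 1.38 CPM in tumours and 0.120, 0.680 and 2.08 CPM in peritumour tissue, lower in tumour in 7 of 14 pairs (log2 fold change -0.28 ± 0.28). Ifng had the widest interval of the 12 cytotoxic and NK genes (log2 fold change -0.90, 95% interval -1.84 to 0.04; adjusted p = 0.228, edgeR), with 26.0 counts in Pe_F 9 and 20.0 in Pe_F 11 and at most 12.0 in every other library.

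**Figure D1:**
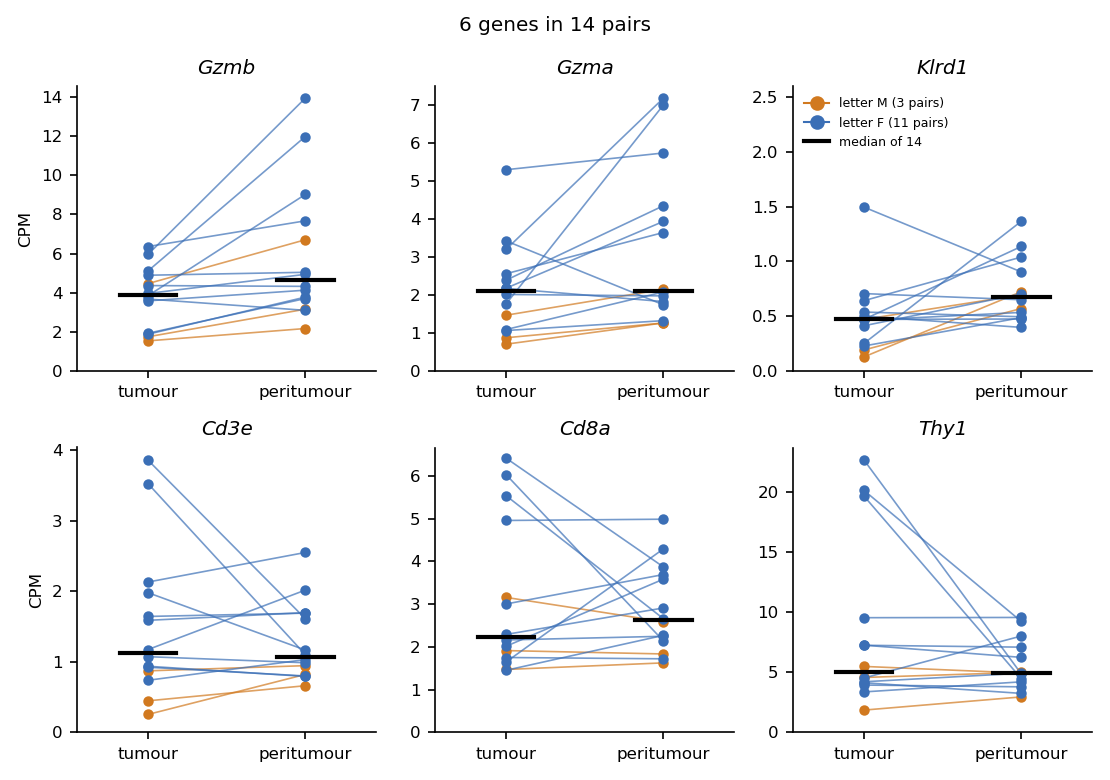
CPM of Gzmb, Gzma and Klrd1 (cytotoxic and NK) and of Cd3e, Cd8a and Thy1 (T lineage) in tumour (left) and peritumour tissue (right). Lines join the libraries of 1 animal, colour gives the letter, and black bars are medians of 14. Gzmb was lower in tumour in 12 of 14 pairs, while Thy1 and Cd3e have a few tumours far above the rest.

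In the T lineage, no gene passed, and the fitted changes lay on both sides of 0, with 11 genes above and 9 below and a median of 0.02. Over all genes tested, 6725 were fitted above and 7392 below 0, with a median of -0.01. The 12 cytotoxic and NK genes had a median of -0.34, with 11 below 0. The T lineage median depended on a few pairs. It was -0.10 without F 2, -0.09 without F 3 and -0.11 without F 5. Without F pairs 2, 5 and 6 it was -0.23, with 16 of 19 genes below 0. The cytotoxic and NK median was then -0.35, with 10 of 11 below 0. In the receptor complex, Cd3g had 0.320, 1.36 and 7.10 CPM in tumours (lowest, median, highest) against 0.794, 1.70 and 3.47 CPM in peritumour tissue. Tumour was lower in 10 of 14 pairs although the highest value of all was a tumour (F 3), and the log2 fold change was -0.35 ± 0.25 (adjusted p = 0.379, edgeR), the smallest adjusted p of the T lineage. Cd3e had 0.03 ± 0.22, Cd3d -0.23 ± 0.28 and Cd247, the CD3 zeta chain, 0.04 ± 0.20. Counts of Cd247 were not whole in 26 libraries and those of Foxp3 in 27, so values of these genes are less certain where reads are shared with other genes.

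Among the co-receptors, Cd4 had 1.19, 2.78 and 9.28 CPM in tumours and 1.27, 2.71 and 4.78 CPM in peritumour tissue. Tumour was higher in 7 of 14 pairs, and the log2 fold change was 0.19 ± 0.21 (adjusted p = 0.576, edgeR). The CD8 chains Cd8a (-0.03 ± 0.18) and Cd8b1 (0.11 ± 0.27) had intervals of -0.39 to 0.33 and -0.41 to 0.63. Of the signalling genes, Lck had 0.576, 2.54 and 7.89 CPM in tumours and 1.81, 2.59 and 5.70 CPM in peritumour tissue (log2 fold change -0.14 ± 0.23). Tumours thus reached both lower and higher than any peritumour library, a picture shared by the kinase gene Zap70 (0.766 to 8.72 CPM in tumours, 0.844 to 3.61 CPM in peritumour tissue) and the adaptor gene Lat (0.0640 to 3.85 CPM in tumours, 0.662 to 2.21 CPM in peritumour tissue).

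Thy1, in the adhesion and co-stimulation group, showed the same shape. It had 1.86, 5.03 and 22.6 CPM in tumours and 2.95, 4.93 and 9.56 CPM in peritumour tissue, and 3 tumours, F 2, F 3 and F 5, measured 22.6, 20.1 and 19.6 CPM while no other library passed 9.56 CPM. The log2 fold change was 0.26 ± 0.21 (adjusted p = 0.455, edgeR). Cd2, Cd5 and Cd27, a cell adhesion receptor, a brake on receptor signalling and a co-stimulatory TNF receptor, had 0.23, 0.39 and 0.22. Icos, a co-stimulatory receptor of activated T cells, had -0.32, and Cd28 and Cd6 had 0.05 and -0.15. Foxp3, the lineage factor of regulatory T cells, reached 0.854, 0.754 and 0.772 CPM in the tumours F 2, F 3 and F 5, against 0.132, 0.132 and 0.0669 CPM in their peritumour partners, and at most 0.441 CPM in every other library. Foxp3 passed the filter on low counts through these 3 tumours, so being tested and being high in them are not independent. Ikzf2 (Helios), a factor of regulatory T cells and of some other lineages, measured 0, 0.226 and 7.89 CPM in tumours (lowest, median, highest) and 0, 0.416 and 1.01 CPM in peritumour tissue. It had 123 counts in Tu_F 2 and at most 17.0 in every other library; its log2 fold change was -0.19 ± 0.55.

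**Figure D2:**
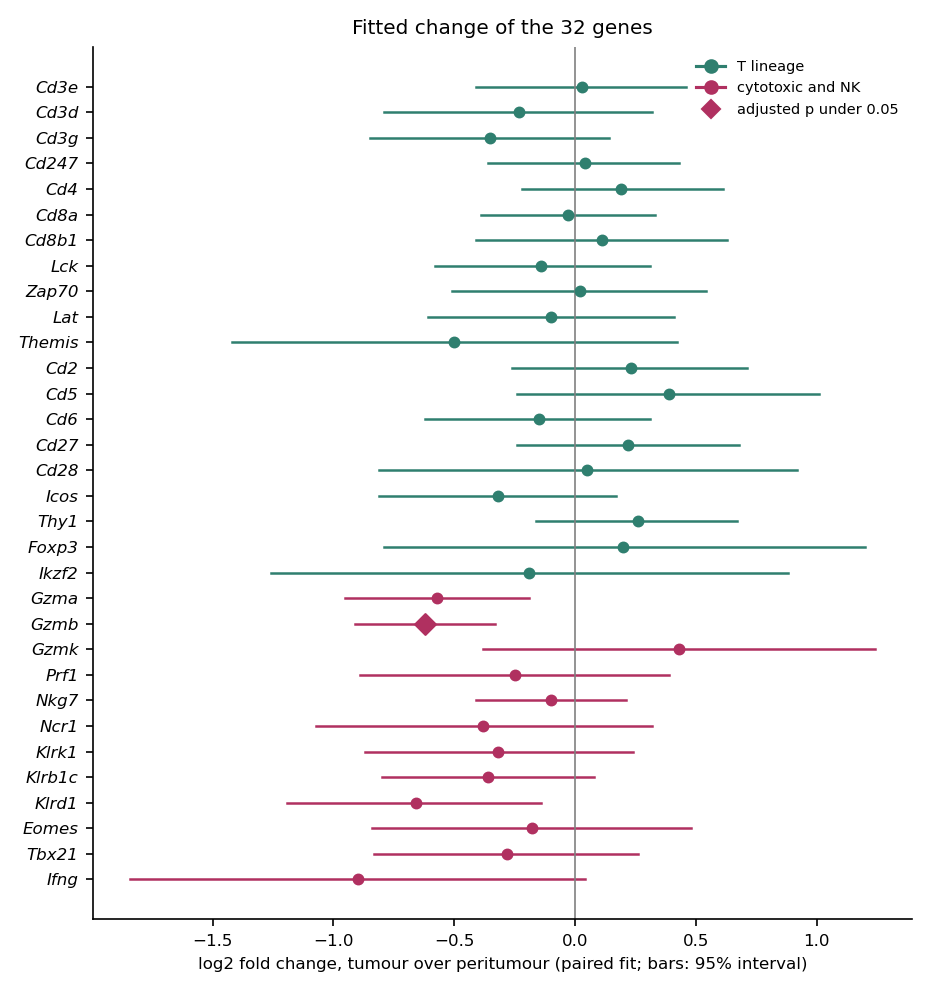
Fitted log2 fold change, tumour over peritumour, of the 32 genes with the animal as a block; bars are 95% intervals. T lineage genes spread on both sides of 0 with a median of 0.02, cytotoxic and NK genes lie mostly below 0 with a median of -0.34, and Gzmb (diamond) is the 1 gene with an adjusted p under 0.05. Without F pairs 2, 5 and 6 (not shown) the medians were -0.23 and -0.35.

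Summed over each list, the libraries show where these means come from. The T lineage sum was 12.6, 25.5 and 98.0 CPM in tumours (lowest, median, highest) and 19.7, 27.97 and 48.3 CPM in peritumour tissue. The mean was higher in tumours (38.2 ± 27.1 CPM, against 30.9 ± 9.46 CPM in peritumour tissue; mean ± SD, n = 14 each), while the median was lower and 10 of 14 pairs had the lower sum in tumour. The difference between mean and median goes with F 3, F 2 and F 5, with 98.0, 89.7 and 66.1 CPM in tumour against 44.2, 26.0 and 24.5 CPM in peritumour tissue. In those 3 animals 20, 20 and 19 of the 20 T lineage genes were higher in tumour, and in F 11 only 1 of 20 was. The tumour of F 3 had the highest value of all 28 libraries for 13 T lineage genes, and that of F 2 for the other 7. The mean log2 ratio of the sums was 0.09 (SD 0.79, n = 14), and -0.18 over the 11 pairs without F 2, F 5 and F 6, so its sign rested on those pairs.

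The cytotoxic and NK sum was 4.99, 14.4 and 25.1 CPM in tumours and 7.95, 15.8 and 42.6 CPM in peritumour tissue, lower in tumour in 12 of 14 pairs. The mean log2 ratio was -0.35 (SD 0.51, n = 14). The exceptions were F 3 (22.9 CPM in tumour, 14.1 CPM in peritumour tissue) and F 4 (15.2 CPM in tumour, 12.7 CPM in peritumour tissue). The widest gaps were in F 11 (14.9 CPM in tumour, 38.4 CPM in peritumour tissue) and F 9 (20.3 CPM in tumour, 42.6 CPM in peritumour tissue), whose peritumour libraries were the highest of all. Pe_F 9 alone held the top value among the 28 libraries for 5 of the 12 genes.

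**Figure D3:**
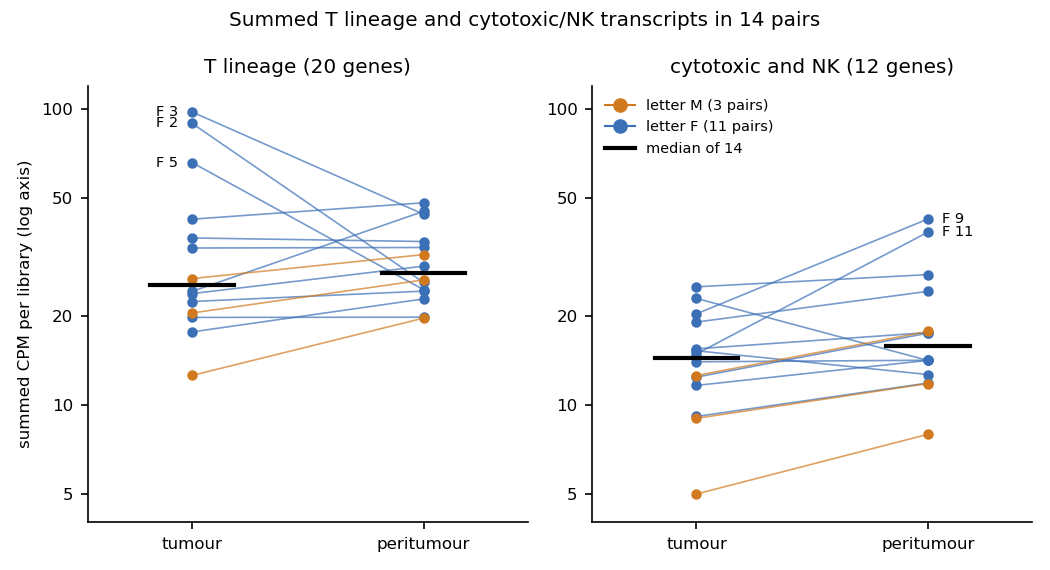
Summed CPM per library, on a log axis, of the 20 T lineage genes (left panel) and the 12 cytotoxic and NK genes (right panel), tumour beside peritumour tissue. Lines join the libraries of 1 animal and black bars are medians. The T lineage sum is far higher in tumour in F 2, F 3 and F 5 and lower in 10 of 14 pairs, and the cytotoxic sum is lower in tumour in 12 of 14 pairs.

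Set against each other, the T lineage sum was 1.42 to 6.41 times the cytotoxic and NK sum in tumours (median 2.13) and 1.01 to 3.13 times in peritumour tissue (median 1.58). The ratio was higher in tumour in 12 of 14 animals, and in 10 of 14 when the most abundant gene of each list, Thy1 and Gzmb, was left out, or when Thy1, Cd4 and Ikzf2 were. Both sums were lower in tumour in 9 animals, the T lineage sum was higher and the cytotoxic sum lower in 3, the reverse held in 1, F 4, and both were higher in 1, F 3. The log2 ratio of the T lineage sum exceeded that of the cytotoxic sum by 0.44 on average (SD 0.64, n = 14), less than the spread between animals, with a median of 0.15. In F 2 and F 5 the excess was 1.81 and 1.77, and in the other 12 animals it ran from -0.27 to 0.88. No test was run on these sums, since their members were chosen with results of these data known.

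Some markers of other cell types also differed within F 2, F 3 and F 5. The monocyte and macrophage markers (Csf1r, Lyz2, Itgam, Ccr2, Adgre1) summed to 910.7, 473 and 381 CPM in these tumours, against 322.6, 314 and 344 CPM in peritumour tissue. The 5 hepatocyte markers went different ways, with 19627 and 43303 CPM in the tumours of F 2 and F 3 against 41496 and 53703 CPM in peritumour tissue, and 28890 CPM in the tumour of F 5 against 17884 CPM in its peritumour partner. Neutrophil, erythroid precursor and Kupffer cell sums were lower in tumour in all 3 animals. The fibroblast and stellate cell markers (Dcn, Lrat, Pdgfrb, Col1a1, Reln) were higher in tumour in F 5, F 2 and F 3, at 759, 682 and 554 CPM against 291, 341 and 486 CPM in peritumour tissue, and lower in the other 11 animals. Pan-leukocyte markers (Ptprc, Coro1a, Laptm5) summed to 288, 215 and 212 CPM in the tumours of F 2, F 3 and F 5, against 150.3, 150.7 and 173 CPM in peritumour tissue. B cell markers were higher in tumour in F 2 and F 3 (4.0 and 4.8 CPM, against 2.2 and 3.5 CPM in peritumour tissue). In F 5 they were lower (4.4 CPM in tumour, 14.5 CPM in peritumour tissue). Stroma markers of lymphoid organs were low throughout, at 0.188 to 6.08 CPM in tumours and 0.359 to 15.2 CPM in peritumour tissue, and stood highest in Pe_F 9. The thymocyte markers (Rag1, Rag2, Dntt, Ptcra) summed to 0.384 to 5.40 CPM in tumours, highest in Tu_F 9, and 0.520 to 3.51 CPM in peritumour tissue. The highest peritumour sum was in Pe_F 5, which also had the highest peritumour sum of B cell markers (14.5 CPM). Of the thymocyte markers, Rag2 was at 0 in 24 of 28 libraries, Rag1 in 14 and Ptcra in 8. Dntt was above 0 in all 28, with up to 83.0 counts, and Rag1 reached 42.0. Over all 14 pairs 4 of 5 Kupffer cell markers and 3 of 5 fibroblast and stellate cell markers passed as lower in tumour, where 5.91% of all genes were lower and 5.59% higher. Alb among 5 hepatocyte markers and Cr2 among 3 tested lymphoid stroma markers also passed as lower. None of the pan-leukocyte, B cell, thymocyte, monocyte, neutrophil or erythroid precursor markers passed. Without the animal block, Dcn and Lrat still passed (adjusted p = 0.0392 and 0.0397, edgeR). Reln, Alb, Cr2 and the Kupffer cell markers did not pass without it. The part of these cell types in the T and NK values was not tested.

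Tumours varied more than peritumour tissue in the T lineage. The SD of log2(CPM + 0.5) over 14 libraries was larger in tumour for 20 of 20 T lineage genes, with a median of 0.72 in tumours and 0.43 in peritumour tissue. For the cytotoxic and NK genes it was larger in tumour for 6 of 12, with medians of 0.49 in tumours and 0.49 in peritumour tissue. Over all genes tested the SD was larger in tumour for 87.07%, with medians of 0.49 in tumours and 0.35 in peritumour tissue.

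**Figure D4:**
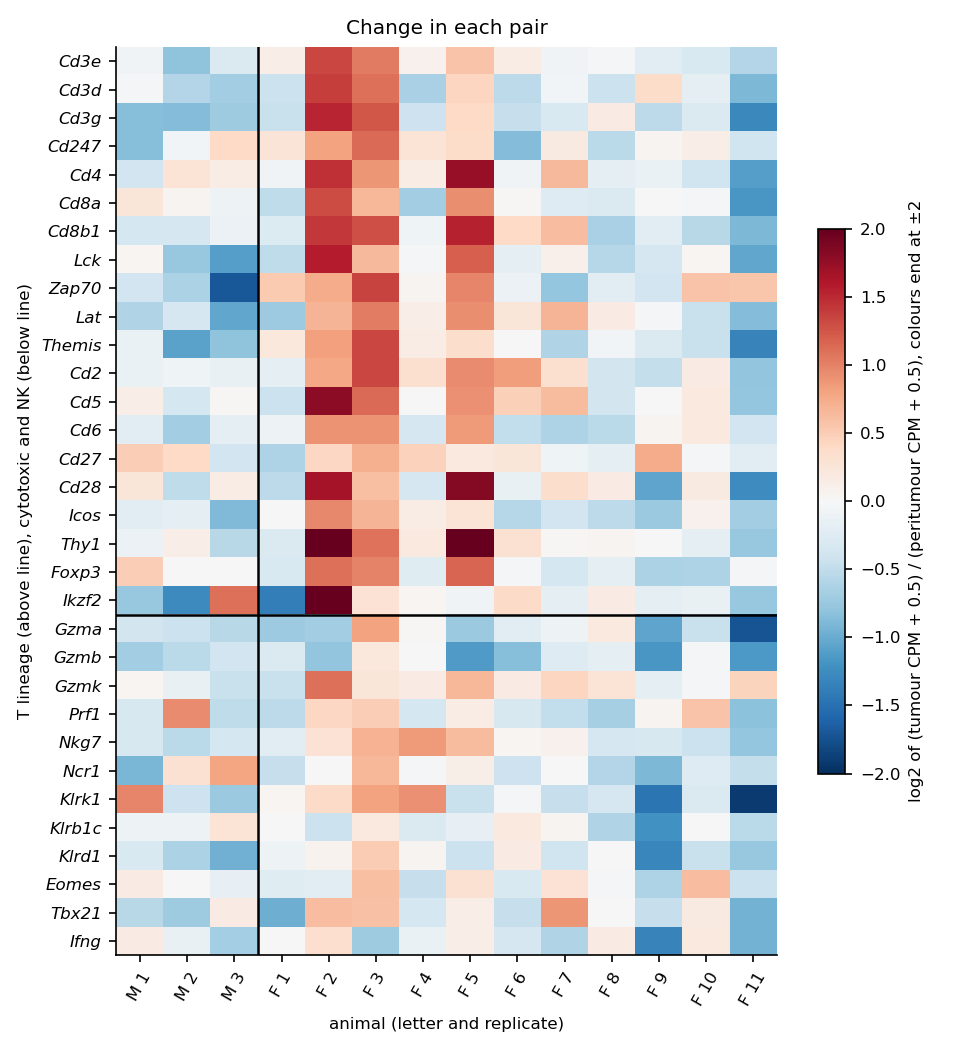
Log2 of (tumour CPM + 0.5) over (peritumour CPM + 0.5) for each gene (rows) in each animal (columns), M animals left of the vertical line and F animals right of it. Red is higher in tumour. The columns F 2, F 3 and F 5 are red over nearly all T lineage rows, while Gzma and Gzmb are blue in F 2 and F 5 and in most other animals.

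The authors' deposited table holds its own tumour against peritumour comparison, in columns named for degseq, and whether it used pairs is not given. At a q-value under 0.05, the authors' deposited table has 10 of 20 T lineage genes higher and 0 lower in tumour, and 5 of 12 cytotoxic and NK genes lower and 0 higher. Over the 17346 genes with a q-value, the authors' deposited table has 43.4% higher and 22.6% lower, so calls are common there in general. The T lineage calls in the authors' deposited table include Thy1 (log2 fold change 0.59, q = 3.77e-29), Ikzf2 (0.95, q = 1.21e-07) and Cd4 (0.42, q = 3.72e-08). The lower calls in the authors' deposited table are Gzmb (-0.65, q = 7.72e-25), Gzma (-0.59, q = 5.03e-12), Klrk1 (-0.46, q = 1.23e-05), Ifng (-1.14, q = 2.41e-05) and Klrd1 (-0.56, q = 0.00278). In the edgeR fit, which differs from those columns in method and possibly in scaling, filter and pairing, Gzmb was the 1 of these 15 genes that passed, and Ikzf2, whose tumour counts come mostly from F 2, had a fitted change below 0.

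Further genes of these pathways were taken from lists that hold no member. Of 24 other genes of T cell signalling and identity, such as Vav1, Tcf7 and Il7r, 19 were tested and 0 passed (5.91% of all genes were lower and 5.59% higher), with a median log2 fold change of -0.10. Of 24 other NK and cytotoxic genes, 16 were tested and 1 passed as lower, a share near that of all genes: Xcl1, a chemokine that NK cells make to draw in dendritic cells, with 0.604 ± 0.483 CPM in tumours and 1.08 ± 0.816 CPM in peritumour tissue (mean ± SD, n = 14 each). Xcl1 was lower in tumour in 13 of 14 pairs (log2 fold change -0.88 ± 0.27; adjusted p = 0.0412 with the animal as a block and 0.239 without it, edgeR). The ligands of NKG2D and the HLA-E homologue H2-T23 gave 0 calls of 4 tested, and the cytokines that keep T and NK cells alive, Il15 and Il7 among them, 0 of 4. Among the genes that respond to or receive interferon gamma, Cxcl9 passed as lower. This chemokine, which draws in T and NK cells, measured 76.9 ± 63.8 CPM in tumours and 149.9 ± 192 CPM in peritumour tissue (mean ± SD, n = 14 each; log2 fold change -0.68 ± 0.17, adjusted p = 0.0192, edgeR), lower in 11 of 14 pairs. Without the animal block Cxcl9 did not pass (adjusted p = 0.247, edgeR).

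The letters were compared within each tissue, 3 M against 11 F animals. In tumours, 0 of 32 members passed in Tu_M against Tu_F, where 0.0283% of all genes were higher and 0% lower. At an unadjusted p under 0.05, 11 members were lower (9 T lineage, 2 cytotoxic and NK) and 0 higher, where 6.79% of all genes were lower and 3.05% higher; the smallest adjusted p of a member was 0.366 (edgeR). All 20 T lineage genes were fitted below 0 in Tu_M, with a median log2 fold change of -1.44, and 9 of 12 cytotoxic and NK genes, with a median of -0.70, while 49.44% of all genes were fitted below 0. Markers of some other cells were fitted lower in Tu_M as well: 5 of 5 neutrophil markers were below 0 (median -1.61), 5 of 5 monocyte and macrophage markers (-0.83), 3 of 3 pan-leukocyte markers (-0.26) and 4 of 5 erythroid precursor markers (-0.79), none past the threshold. Of the B cell markers 2 of 3 tested were below 0 (median -0.35), as was the 1 tested thymocyte marker (-0.04). Among fibroblast and stellate cell markers 3 of 5 were below 0 (median -0.04), and among hepatocyte markers 3 of 5 (-0.01). Kupffer cell markers were fitted above 0 in 5 of 5 (median 0.20) and lymphoid stroma markers in 3 of 3 tested (0.22). The part of these cells in the T lineage values was not tested. The T lineage sums were 26.8, 20.5 and 12.6 CPM in Tu_M, and 17.7, 33.9 and 98.0 CPM in Tu_F (lowest, median, highest). The groups overlapped, and no member had every Tu_M library below every Tu_F library, as 0.404% of all genes had.

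Cd3e had the smallest unadjusted p. It measured 0.873, 0.255 and 0.448 CPM in the 3 Tu_M libraries, against 0.740 to 3.86 CPM in Tu_F (log2 fold change -1.82 ± 0.53, adjusted p = 0.366, edgeR). Lck had 2.62, 0.957 and 0.576 CPM in Tu_M (log2 fold change -1.45 ± 0.51), Thy1 4.57, 5.49 and 1.86 CPM (-1.49 ± 0.53) and Cd3g 1.01, 0.638 and 0.320 CPM (-2.07 ± 0.63). In Tu_F, Lck ran from 1.25 to 7.89 CPM, Thy1 from 3.37 to 22.6 CPM and Cd3g from 0.438 to 7.10 CPM, so each overlapped with Tu_M. Cd4 measured 2.55, 3.00 and 2.05 CPM in Tu_M, inside the 1.19 to 9.28 CPM of Tu_F (log2 fold change -0.86 ± 0.52). Ikzf2 had 0.134, 0.128 and 0.832 CPM in Tu_M and 0 to 7.89 CPM in Tu_F (-2.05 ± 1.01), and neither gene separated the groups. Of the cytotoxic and NK genes, Gzmb, with 1.75, 4.47 and 1.54 CPM in Tu_M and 1.88 to 6.36 CPM in Tu_F, had a log2 fold change of -0.11 ± 0.47. Klrk1 had 1.34, 1.72 and 0.448 CPM in Tu_M and 0.626 to 3.74 CPM in Tu_F (-0.49 ± 0.67), and Tbx21 had 0.269, 0.383 and 0.192 CPM in Tu_M and 0.250 to 1.38 CPM in Tu_F (-1.29 ± 0.65). The 3 M animals share their style of title code with F 1, F 2 and F 3 only, and style is a covariate of the fit, so the contrast leans on those 3 F animals, of which F 2 and F 3 had the highest T lineage sums. Without the covariate the T lineage median was -1.12 and the cytotoxic and NK median -0.95, with 11 of 12 genes of the latter list below 0. Within the first code style the medians were -1.76 over 19 T lineage genes and -1.07 over 7 cytotoxic and NK genes. The gap between the 2 lists in tumours thus depended on the covariate and on the genes tested.

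In peritumour tissue, 0 members passed in Pe_M against Pe_F (0.0283% of all genes were higher and 0% lower), and the members had a median log2 fold change of -0.60, against -0.02 for all genes. These medians depended on the code style covariate. The T lineage median was -0.71 with it, -0.33 without it and -0.2 within the first code style. The cytotoxic and NK median was -0.52 with it, -0.76 without it and -0.25 within the first code style. The T lineage sums were 32.3, 26.5 and 19.7 CPM in Pe_M and 19.8, 29.5 and 48.3 CPM in Pe_F (lowest, median, highest), which overlapped. Of the most abundant T lineage genes of each role, Cd3g averaged 1.55 ± 0.684 CPM in Pe_M and 1.94 ± 0.794 CPM in Pe_F (mean ± SD, n = 3 Pe_M and 11 Pe_F). Cd4 averaged 2.56 ± 0.844 CPM in Pe_M and 2.93 ± 1.07 CPM in Pe_F. Lck averaged 2.10 ± 0.378 CPM in Pe_M and 3.30 ± 1.15 CPM in Pe_F. The means of these 3 genes were thus lower in Pe_M, with the libraries overlapping. Thy1 averaged 4.29 ± 1.16 CPM in Pe_M and 5.97 ± 2.21 CPM in Pe_F. Ikzf2, at 0.567 ± 0.446 CPM in Pe_M and 0.404 ± 0.239 CPM in Pe_F, had the higher mean in Pe_M. The cytotoxic and NK genes had lower means in Pe_M where they led their role. Gzmb averaged 4.01 ± 2.39 CPM in Pe_M and 6.51 ± 3.68 CPM in Pe_F. Klrk1 averaged 1.33 ± 1.04 CPM in Pe_M and 2.27 ± 1.71 CPM in Pe_F, and Tbx21 0.567 ± 0.418 CPM in Pe_M and 0.847 ± 0.476 CPM in Pe_F. Each of these 8 genes overlapped between the groups. At an unadjusted p under 0.05 only Foxp3 was lower, where 0.737% of all genes were lower and 0.786% higher, and every Pe_M library lay below every Pe_F library, as for 0.269% of all genes. Foxp3 had 0, 1.01 and 1.01 counts in the 3 Pe_M libraries and 1.03 to 7.25 counts in Pe_F, so this separation rested on few counts and did not pass after adjustment. The change from peritumour tissue to tumour did not pass as different between M and F animals for any member (0 of all genes passed). At an unadjusted p under 0.05, Zap70 (difference of log2 fold changes -1.60, M minus F) and Lat (-1.36) were lower, 2 of 32 members, where 3.29% of all genes were lower and 3.8% higher.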

How the data were processed

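RNA was measured in 28 mouse liver libraries (14 tumour, 14 peritumour), with mRNA selected on oligo(dT) beads, per the labels' protocols. Of tools, the submitters' processing notes list RSEM 1.2.12, HISAT2 2.0.4, DESeq2 1.4.5 and Bowtie2 2.2.5, with no step given. For each gene in each library the authors deposited an estimated count (8.06% of values are not whole) and a TPM value, and the whole table adds a log2 fold change with a q-value (an adjusted p-value) for tumour against peritumour, per the file headers. The build of coordinates in the deposited table is GRCm38 by its chromosome accessions.

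Estimated counts were rounded and tested with edgeR's robust quasi-likelihood test (edgeR 4.0.16, R 4.3.3). The filter filterByExpr kept 14117 of 18182 genes (1 line has no gene ID and was dropped), TMM factors ran from 0.809 to 1.36, and p-values were Benjamini-Hochberg adjusted across those 14117 genes, with 0.05 as threshold. Tumour was compared with peritumour with the animal as a block, taken from the shared title code. Libraries of a pair deviated together from their group means (correlation 0.13 to 0.66 in all 14 pairs, own partner best in 12), and the biological coefficient of variation was 0.27 with the block and 0.381 without. The own partner was not the best for M 3 or for F 2. F 2 had the lowest correlation (0.13), and its tumour had the highest TMM factor (1.36). M and F were compared in 1 fit with a mean per group and title code style as covariate, and their tumour changes by an interaction with the animal as block. Every pair of libraries of a group differed beyond sampling noise (lowest index of dispersion 19.3). CPM values are per 1000000 estimated counts of the library. The fits were tested on simulated counts.

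The 32 members, their roles, 5 lists of related genes and 10 marker lists (114 of 120 listed genes other than the members found) were chosen with earlier results of these data known. Values are given in every group for members past the threshold in the paired or unpaired fit and for the most abundant member of each role, plus up to 2 risen and 2 fallen genes of each related list; others named were chosen after their values were seen. Alternatives were the fit without block, DESeq2 1.42.0, library size alone, no filter, subsets of animals and leaving out each animal; leaving out Thy1, Cd4 and Ikzf2 was added after seeing the data. Promoter windows come from RefSeq (GRCm38.p6). Some genes of the related lists are not reported here.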

Additional observations from a re-analysis of the deposited data

How the results depend on the processing

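The number of members lower in tumour (1, Gzmb) was 0 without the animal block, in F pairs alone, within either code style and without F pairs 2, 5 and 6, and 2 with DESeq2 (Gzma added). It ranged from 1 to 2 when each animal was left out in turn, with 2 without F replicate 3. Calls over all genes (1624) were 148 without the block, 0 within the first code style and 981 within the second, and 899 to 1957 with each animal left out, lowest without F replicate 8. Some subsets test fewer members, since the filter depends on the libraries kept and on the size of their smallest group: 23 in F pairs alone and 26 and 23 within the first and second styles. Leaving out an M animal raised the number of genes tested from 14117, to between 14311 and 14365. For Tu_M against Tu_F the calls over all genes (4) were 7 without F pairs 2, 5 and 6, 7 without the code style covariate and 68 with DESeq2, with 0 members called in each. With library size alone the median of all genes moved by over 0.1 in the letter contrasts, to -0.11 in Tu_M against Tu_F and -0.13 in Pe_M against Pe_F, and the T lineage median in tumours was -1.60. Single members kept their direction and side of the threshold, or stayed uncalled, in 1448 results under alternatives; Gzmb lost its call in 5 and Gzma gained one in 2. The mean log2 ratio of the T lineage sum ran from -0.04 to 0.16 with each animal left out, was 0.05 as a mean of log2 values, 0.05 with TMM-adjusted CPM and -0.01 without Thy1, Cd4 and Ikzf2, while that of the cytotoxic sum stayed between -0.43 and -0.19. The cause of these shifts was not tested. Depth limits the rarest members, such as Foxp3, Gzmk, Eomes and Ifng, whose wide intervals leave moderate changes undetectable.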
